A study of Mus musculus with 24 samples.

Results

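Transcripts of muscle atrophy and autophagy were followed in C2C12 myoblasts, mouse cells that form myotubes in culture once serum is reduced. The 10 genes were listed by name, with no threshold on measured values. They comprised the muscle ubiquitin ligases Fbxo32 (atrogin-1) and Trim63 (MuRF1), the FOXO transcription factors Foxo1 and Foxo3, and the autophagy genes Ulk1, Map1lc3a, Map1lc3b, Gabarapl1, Bnip3 and Ctsl. All 10 were among the 14693 genes of the count table and among the 12994 genes tested. The cells were labelled wild type, were grown in 10% fetal bovine serum and were moved to 2% horse serum to differentiate. During differentiation they received linoleic acid (LA, the omega-6 fatty acid 18:2) at 100 µM on bovine serum albumin, recombinant mouse ANGPTL4 at 10 ng/mL, or vehicle. ANGPTL4 is a secreted inhibitor of lipoprotein lipase whose own gene responds to fatty acids. The 6 groups were LA, ANGPTL4 and vehicle at day 6 and LA, ANGPTL4 and vehicle at day 2, with 4 libraries each. All came from 1 cell line in culture, with no nerve, vessel or adult fibre, and what the vehicle held was not given in the sources used here. Nothing in the labels says that replicates were separate cultures, so p-values measure the spread between these libraries, which may be technical.

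These genes bear on 2 of the routes by which skeletal muscle loses protein. In the proteasome route, Fbxo32 and Trim63 attach ubiquitin to muscle proteins and mark them for degradation. In the autophagy route, the kinase Ulk1 starts the autophagosome, and proteins of the ATG8 family, which include the products of Map1lc3a, Map1lc3b and Gabarapl1, are joined to its membrane and recruit cargo. Bnip3 sits on mitochondria and tethers them to ATG8 proteins, and the lysosomal protease cathepsin L, from Ctsl, digests what is delivered. Foxo1 and Foxo3 are held out of the nucleus by insulin and growth factor signalling through AKT, and in fasted or denervated muscle they switch on genes of both routes. A transcript level does not measure autophagic flux or proteolysis.

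The 2 promoters shown belong to the ligase and the mitophagy receptor whose transcripts differed between LA and vehicle at day 6. They are the 250 bases before the annotated start, 5′ to 3′ on the gene's strand, from RefSeq on GRCm38.p6, which is not the mm39 build of the counts. Capitals mark the motif found, GTAAACA on either strand, a FOXO binding motif, in Trim63, and CACGTG, an E-box core of the kind bound by TFEB, in Bnip3.
Trim63, chr4:134314870-134315119, plus strand: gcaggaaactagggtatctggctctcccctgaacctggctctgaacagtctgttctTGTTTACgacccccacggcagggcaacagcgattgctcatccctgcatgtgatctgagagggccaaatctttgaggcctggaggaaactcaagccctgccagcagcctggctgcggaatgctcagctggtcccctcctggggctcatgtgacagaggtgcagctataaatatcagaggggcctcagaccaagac
Bnip3, chr7:138909507-138909756, minus strand: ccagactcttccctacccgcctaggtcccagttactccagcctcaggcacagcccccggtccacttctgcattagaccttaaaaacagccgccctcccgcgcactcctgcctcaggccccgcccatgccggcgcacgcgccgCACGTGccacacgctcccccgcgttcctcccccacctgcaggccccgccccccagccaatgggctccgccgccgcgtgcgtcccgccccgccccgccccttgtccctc
A promoter was matched by symbol for 8 of the 10 genes. Fbxo32 and Map1lc3a had no entry, so their promoters were not searched. GTAAACA lay in 1 of these 8, Trim63, 194 bases before the start, and in 3.17% of the 32851 promoters of the same length. CACGTG lay in 2 of the 8, Bnip3 and Ctsl, and in 6.02% of all. Each CACGTG also holds ACGTG, the core bound by hypoxia-inducible factors, which was in the same 2 genes and in 16.6% of all promoters. A match describes letters in this window and not an occupied site.

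Libraries held 6100684 to 25049912 counts of 3′ transcript ends, so a count reflects transcripts and not their length. The lowest count of any of the 10 genes in any library was 219 (Trim63, day 6 ANGPTL4). Values are CPM, each count taken relative to its library's TMM-scaled total. Log2 fold changes (log2FC) come from edgeR's quasi-likelihood test of all 24 libraries, with Benjamini-Hochberg adjustment over the 12994 genes tested and a call at an adjusted p under 0.05. Day 2 LA replicate 3 and day 6 ANGPTL4 replicate 1 stood apart from their groups on the second principal component (9.46% of variance), at -19.3 against 1.32 to 4.07, and at 18.7 against -9.37 to -6.65. On this component day 2 LA replicate 3 lay among day 2 ANGPTL4 replicates 1 to 3 (-19.7 to -15.2). Day 2 ANGPTL4 replicate 4 was at -4.61, between them and the other day 2 LA libraries. All libraries were kept under the groups of their labels, and the cause of these positions was not tested. Calls of the 10 genes and of the printed pathway genes that were lost without the 2 libraries that stood apart are given both ways. All 8 muscle markers, among them Myog, Acta1 and Ckm, were present in every group. Their summed level was 9376 to 10353 CPM with LA, 12757 to 13529.8 with ANGPTL4 and 13162 to 13719 with vehicle at day 6. Of 9 fibroblast markers 8 were measured, and they summed to 10482 to 12573, 8444 to 9317 and 8478 to 9724 CPM in the same groups. Of 7 adipocyte markers 0 were among the genes analysed. Macrophage markers (5 of 7 measured, not Ptprc or Adgre1) summed to at most 8.58 CPM and endothelial markers (3 of 5 measured, not Pecam1 or Kdr) to at most 3.53 CPM in any library.

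In vehicle, day 6 was compared with day 2 to describe the genes along differentiation itself. Most of them changed, by small amounts. Of the 10 genes, 7 rose and 1 fell, while 45.6% (25.2% higher and 20.5% lower) of all genes tested were called in this comparison. Fbxo32 was the gene that fell, and the other ligase, Trim63, rose. Foxo1 and Gabarapl1 were the 2 without a call. The 8 calls were kept in every one of 34 alternative settings, among them each library left out in turn. Fibroblast markers summed to 8478 to 9724 CPM at day 6 and 6420.0 to 7445 CPM at day 2 (6 of 8 higher, 2 lower). Muscle markers summed to 13162 to 13719 and 11114 to 12356 CPM, but were split by gene (4 of 8 higher, 3 lower). The part of these markers in the result was not tested.

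The ligases moved in opposite directions. Fbxo32 had 109, 109, 111 and 109 CPM in the day 6 vehicle libraries, against 136, 115, 119 and 129 CPM at day 2. Every day 6 library lay below every day 2 library (log2FC -0.19, SE 0.0545, adjusted p = 0.00527). Trim63 had 36.9, 38.3, 35.9 and 38.6 CPM at day 6, against 33.2, 31.2, 31.2 and 27.6 CPM at day 2, and here every day 6 library was the higher (log2FC 0.28, SE 0.0659, adjusted p = 0.000865). The fold changes were 0.878 and 1.21.

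The FOXO factors also differed from each other. Foxo3 had 113, 112, 103 and 102 CPM at day 6, against 79.0, 74.4, 77.4 and 79.3 CPM at day 2, without overlap (log2FC 0.47, SE 0.0571, adjusted p = 4.63e-08). Foxo1 averaged 116 ± 5.89 CPM at day 6 and 117 ± 4.29 CPM at day 2 (SD, n = 4 each), a difference within the spread of the libraries (log2FC -0.010, SE 0.0533, adjusted p = 0.895).

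Among the autophagy genes, Map1lc3a had the highest log2FC. It had 99.2, 86.4, 85.4 and 89.6 CPM at day 6, against 66.9, 59.6, 57.8 and 51.1 CPM at day 2 (log2FC 0.62, SE 0.108, adjusted p = 7.43e-05). Bnip3 had 51.2, 49.3, 45.0 and 50.02 CPM at day 6, against 40.1, 29.1, 33.4 and 34.2 CPM at day 2 (log2FC 0.52, SE 0.0851, adjusted p = 9.75e-06). In both genes every day 6 library exceeded every day 2 library. Map1lc3b (log2FC 0.24, SE 0.0597, adjusted p = 0.00119), Ctsl (log2FC 0.31, SE 0.0545, adjusted p = 2.12e-05) and Ulk1 (log2FC 0.26, SE 0.0502, adjusted p = 7.54e-05) rose by less, in 16 of 16 pairs of libraries each. Without day 2 vehicle replicate 2 the log2FC of Map1lc3b was 0.16 (adjusted p = 0.0241). Gabarapl1 was at 62.1 ± 2.34 CPM at day 6 and 55.5 ± 3.52 CPM at day 2 and did not pass (log2FC 0.16, SE 0.0777, adjusted p = 0.0918).

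**Figure D1:**
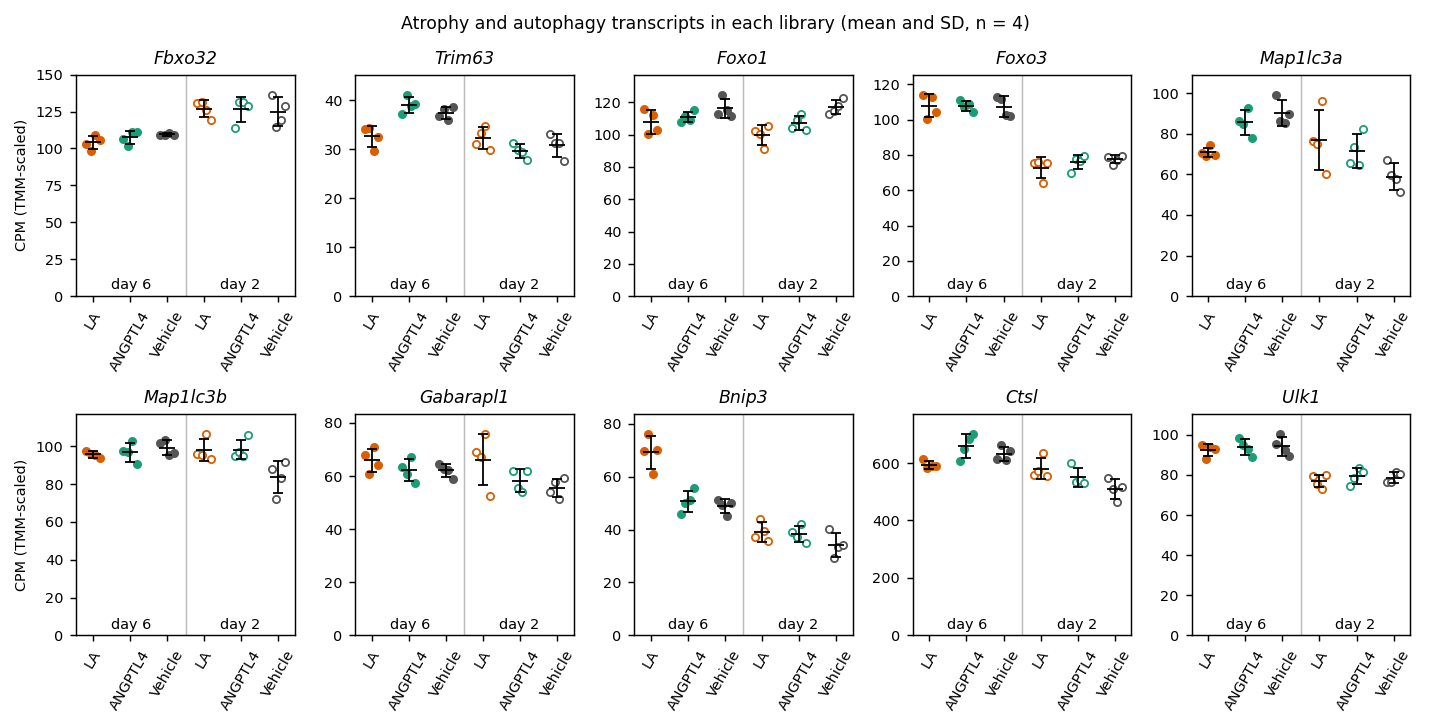
TMM-scaled CPM of the 10 genes (vertical axes start at 0) in each library, as filled circles for day 6 and open circles for day 2, with the mean and SD of the 4 libraries of a group in black. Bnip3 was highest in the day 6 LA libraries (60.8 to 76.1 CPM), and Fbxo32 averaged 104 to 127 CPM over all groups.

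Late in differentiation, at day 6, LA was set against vehicle. Bnip3 rose, and Trim63 and Map1lc3a fell, which made 3 of the 10 genes called, against 17.2% (7.83% higher and 9.38% lower) of all genes tested. The other 7 did not pass. Among them was Fbxo32 (log2FC -0.074, SE 0.0552, adjusted p = 0.413).

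Bnip3 had the lowest adjusted p of the 10. It had 69.6, 76.1, 60.8 and 69.9 CPM with LA, against 51.2, 49.3, 45.0 and 50.02 CPM with vehicle. Every LA library lay above every vehicle library, and the mean was 1.42-fold higher (log2FC 0.50, SE 0.0812, adjusted p = 2.77e-05). The call was kept in all 34 alternatives (adjusted p 1.71e-07 to 0.000271).

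Trim63 had 34.1, 34.4, 29.7 and 32.6 CPM with LA, against 36.9, 38.3, 35.9 and 38.6 CPM with vehicle. The groups did not overlap, but the call was marginal (log2FC -0.19, SE 0.0661, adjusted p = 0.0465). It was lost in 28 of 34 alternatives, 21 of them with a single library left out, such as day 6 vehicle replicate 1 (0.109), 2 (0.146) or 4 (0.156) or day 6 LA replicate 2 (0.0718), 3 (0.220) or 4 (0.128). Without the 2 libraries that stood apart the adjusted p was 0.0520. The log2FC stayed between -0.21 and -0.13.

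Map1lc3a had 70.3, 69.0, 74.3 and 69.7 CPM with LA, against 99.2, 86.4, 85.4 and 89.6 CPM with vehicle, again without overlap (log2FC -0.35, SE 0.107, adjusted p = 0.0266). It missed the threshold when day 6 vehicle replicate 1 (0.112) or 4 (0.0580) was left out, or day 6 LA replicate 1 (0.0580), 2 (0.0820) or 4 (0.0723), and also with library totals in place of TMM (0.0554). The other ATG8 genes, Map1lc3b (log2FC -0.051, adjusted p = 0.630) and Gabarapl1 (log2FC 0.083, adjusted p = 0.532), did not pass. Neither did Ctsl (log2FC -0.090, adjusted p = 0.289), Ulk1 (log2FC -0.029, adjusted p = 0.763), Foxo1 (log2FC -0.11, adjusted p = 0.189) or Foxo3 (log2FC 0.0084, adjusted p = 0.946). In the LA libraries in which Trim63 and Map1lc3a were lower, the summed muscle markers were also lower and the fibroblast markers higher, by the values given above. Of 8 muscle markers 7 were called lower and 1 higher, and of 8 fibroblast markers 6 were called higher and 0 lower. The part of these markers in the result was not tested. In bulk RNA, fewer cells of a type and less RNA per cell cannot be told apart.

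Early in differentiation, at day 2, the same comparison was made. Map1lc3a, Map1lc3b, Gabarapl1 and Ctsl rose and Foxo1 fell, so 5 of the 10 genes were called, against 15.1% (8.27% higher and 6.82% lower) of all genes tested. Each of the 4 rises lost its call without 1 library. Without day 2 LA replicate 3 the count was 1 (Foxo1), and 632 rather than 1961 genes of the whole table were called. With only the compared groups fitted the count was also 1. Without the 2 libraries that stood apart, the adjusted p was 0.0882 for Map1lc3a, 0.0658 for Map1lc3b, 0.122 for Gabarapl1 and 0.0950 for Ctsl.

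Foxo1 had 102, 100.3, 90.8 and 106 CPM with LA, against 113, 115, 118 and 123 CPM with vehicle. Every LA library lay below every vehicle library (log2FC -0.23, SE 0.0527, adjusted p = 0.00439), and the call was kept in all 34 alternatives (adjusted p 0.000480 to 0.0456). Foxo3 did not pass (log2FC -0.094, SE 0.0569, adjusted p = 0.278).

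Map1lc3a had 76.3, 74.8, 95.9 and 59.9 CPM with LA, against 66.9, 59.6, 57.8 and 51.1 CPM with vehicle (log2FC 0.40, SE 0.106, adjusted p = 0.0157). Replicate 3 was the highest of the LA libraries and replicate 4, the shallowest of them, lay inside the vehicle range. Without replicate 3 the log2FC was 0.26 and the adjusted p 0.0779, and without day 2 vehicle replicate 4 it was 0.0681.

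Map1lc3b had 96.1, 95.4, 106 and 93.5 CPM with LA, against 87.9, 72.1, 83.3 and 91.9 CPM with vehicle, without overlap (log2FC 0.23, SE 0.0586, adjusted p = 0.00948). The adjusted p was 0.0746 without LA replicate 3 and 0.0538 without vehicle replicate 2. Gabarapl1 had 69.1, 67.2, 75.9 and 52.7 CPM with LA, against 53.8, 57.7, 51.5 and 59.1 CPM with vehicle, and the groups overlapped (log2FC 0.26, SE 0.0753, adjusted p = 0.0176). Here the adjusted p was 0.134 without LA replicate 3, 0.0587 without vehicle replicate 3 and 0.0854 with all libraries thinned to the smallest total.

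Ctsl had 559, 573, 633 and 554 CPM with LA, against 548, 508, 463 and 516 CPM with vehicle, without overlap (log2FC 0.19, SE 0.0544, adjusted p = 0.0183). Its adjusted p was 0.146 without LA replicate 3 and 0.101 without vehicle replicate 3. The ligases Fbxo32 (log2FC 0.026, adjusted p = 0.787) and Trim63 (log2FC 0.072, adjusted p = 0.481) did not pass at day 2, nor did Bnip3 (log2FC 0.20, adjusted p = 0.105) or Ulk1 (log2FC -0.034, adjusted p = 0.695). Bnip3 passed with day 2 vehicle replicate 1 left out (0.0276). At this day the summed muscle markers spanned 10382 to 11196 CPM with LA and 11114 to 12356 CPM with vehicle, and the fibroblast markers 6689 to 7426 and 6420.0 to 7445 CPM. Of the 8 muscle markers 0 were called higher and 1 lower, with a median log2FC of 0.043. Of the 8 fibroblast markers 0 were called higher and 0 lower.

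**Figure D2:**
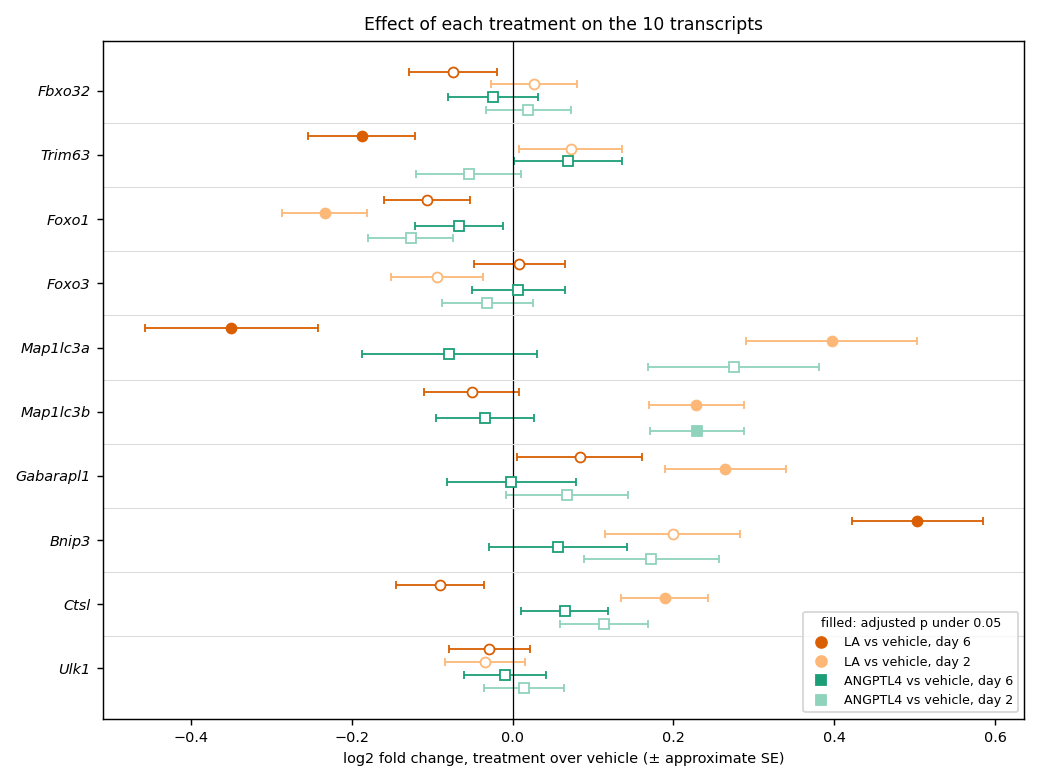
Log2FC of each treatment over vehicle (horizontal axis, ± approximate SE) for the 10 genes, with circles for LA and squares for ANGPTL4, darker for day 6, and filled where the adjusted p was under 0.05. Bnip3 with LA at day 6 lay farthest to the right (0.50), Map1lc3a had opposite signs with LA at day 6 (-0.35) and day 2 (0.40), and the points of Fbxo32 and Ulk1 were all open.

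The effect of LA at day 6 was set against its effect at day 2 in a test of the difference. It was lower at day 6 for 4 of the 10 genes, Map1lc3a, Map1lc3b, Ctsl and Trim63, against 19.7% (8.68% higher and 11% lower) of all genes tested called in either direction. Map1lc3a stood out, with a log2FC of LA over vehicle of -0.35 at day 6 and 0.40 at day 2 (difference -0.75, SE 0.151, adjusted p = 0.00160). This call was kept in all 34 alternatives (2.49e-05 to 0.00589), and the difference was -0.61 without the 2 libraries that stood apart. For Ctsl the difference was -0.28 (adjusted p = 0.0102, and 0.0524 without day 2 LA replicate 3). For Map1lc3b it was -0.28 (adjusted p = 0.0173). It missed the threshold with any 1 of these left out: day 2 LA replicate 3 (0.0705), day 2 vehicle replicate 2 (0.0637), or day 6 vehicle replicate 1 (0.0514) or 2 (0.0569). For Trim63 it was -0.26 (adjusted p = 0.0440), lost in 27 of 34 alternatives (0.0392 to 0.166). Without the 2 libraries that stood apart the difference was -0.21 for Trim63 (adjusted p = 0.128) and -0.23 for Map1lc3b (adjusted p = 0.0574). For Bnip3 the difference missed the threshold (0.30, SE 0.117, adjusted p = 0.0638) and passed it in 13 of 34 alternatives. For Gabarapl1 it passed with day 2 LA replicate 4 left out (0.0485).

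ANGPTL4 was then set against vehicle. At day 6, 0 of the 10 genes were called by edgeR, DESeq2 or limma-voom, and 0 had an unadjusted p under 0.05. The background was also close to empty, with 0.0231% (0.0154% higher and 0.0077% lower) of genes called. The 10 log2FC lay between -0.079 (Map1lc3a) and 0.069 (Trim63). Bnip3, which rose with LA at this day, had 45.7, 49.9, 51.2 and 55.6 CPM with ANGPTL4, against 51.2, 49.3, 45.0 and 50.02 CPM with vehicle, and the groups overlapped (log2FC 0.057, SE 0.0858, adjusted p = 0.843).

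At day 2, 1 of the 10 genes, Map1lc3b, rose with ANGPTL4, against 9.82% (3.86% higher and 5.96% lower) of all genes called. Map1lc3b had 94.9, 97.2, 94.9 and 106 CPM with ANGPTL4, against the vehicle values given above, without overlap (log2FC 0.23, SE 0.0588, adjusted p = 0.0141). It missed the threshold with day 2 vehicle replicate 2 left out (log2FC 0.15, adjusted p = 0.0853), with day 2 ANGPTL4 replicate 4 left out (0.0622) and with only the compared groups fitted (0.0858). Map1lc3a did not pass (log2FC 0.27, SE 0.107, adjusted p = 0.104), though without day 2 LA replicate 3, which enters the shared spread, it did (0.0329). Foxo1 had 104, 109, 112 and 103 CPM with ANGPTL4, every one below the vehicle libraries, but did not pass (log2FC -0.13, SE 0.0526, adjusted p = 0.120). The ligases Fbxo32 (log2FC 0.020, adjusted p = 0.852) and Trim63 (log2FC -0.055, adjusted p = 0.630) did not pass. Neither did Bnip3 (log2FC 0.17, adjusted p = 0.188), Ctsl (log2FC 0.11, adjusted p = 0.179) or Gabarapl1 (log2FC 0.068, adjusted p = 0.606). Foxo3 (log2FC -0.031, adjusted p = 0.768) and Ulk1 (log2FC 0.014, adjusted p = 0.894) also did not. For the difference between the ANGPTL4 effects of the 2 days, edgeR, DESeq2 and limma-voom called 0, 0 and 0 of the 10 genes, edgeR gave 2 an unadjusted p under 0.05, and 0.277% (0.0847% higher and 0.192% lower) of all genes were called. The ANGPTL4 and LA comparisons of a day share their vehicle libraries, so their log2FC are not independent.

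LA was also compared with ANGPTL4 directly. At day 6, 2 of the 10 genes were called, against 13.9% (6.6% higher and 7.32% lower) of all genes. Bnip3 was 1.36-fold higher with LA, in 16 of 16 pairs (log2FC 0.45, SE 0.0839, adjusted p = 0.000268). Trim63 was lower with LA, with 34.1, 34.4, 29.7 and 32.6 CPM against 37.2, 41.2, 39.0 and 39.3 CPM with ANGPTL4 (log2FC -0.26, SE 0.0686, adjusted p = 0.00888). The threshold was missed with either of these left out: day 6 LA replicate 3 (0.0560) or day 6 ANGPTL4 replicate 2 (0.0561). Ctsl missed the threshold (log2FC -0.16, SE 0.0547, adjusted p = 0.0539) and passed it without day 6 ANGPTL4 replicate 1 (0.0286). At day 2 edgeR, DESeq2 and limma-voom called 0, 0 and 0 of the 10 genes, 2 had an unadjusted p under 0.05 with edgeR, and 0.0924% (0.0616% higher and 0.0308% lower) of all genes were called. Map1lc3a did not pass at day 6 (log2FC -0.27, SE 0.110, adjusted p = 0.114), though every LA library lay below every ANGPTL4 library. This gene passed at day 6 with day 2 LA replicate 3 left out (0.0338) or with only the compared groups fitted (0.00151). At day 2, with LA replicate 4 left out, Gabarapl1 passed (0.00837).

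The course from day 2 to day 6 under each treatment followed. With LA, 3 of the 10 genes rose and 1 fell between the days, against 43.8% (23.1% higher and 20.7% lower) of all genes called, and with ANGPTL4 5 rose and 1 fell, against 42.2% (22.4% higher and 19.8% lower). Fbxo32 fell and Foxo3, Bnip3 and Ulk1 rose under both. Fbxo32 averaged 104 ± 4.56 CPM at day 6 and 127 ± 5.73 CPM at day 2 with LA (log2FC -0.29, SE 0.0540, adjusted p = 5.75e-05), and 108 ± 4.35 CPM at day 6 and 127 ± 8.45 CPM at day 2 with ANGPTL4 (log2FC -0.23, SE 0.0551, adjusted p = 0.000891). Foxo3 averaged 108 ± 6.59 CPM at day 6 and 72.8 ± 5.81 CPM at day 2 with LA (log2FC 0.57, SE 0.0564, adjusted p = 7.09e-10). Bnip3 had its highest log2FC of any comparison here, 0.82 with LA (SE 0.0798, adjusted p = 8.28e-10), a 1.77-fold difference, beside 0.40 with ANGPTL4 (adjusted p = 0.000262).

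Trim63 and Ctsl rose between the days with ANGPTL4 (log2FC 0.40, adjusted p = 9.28e-06, and log2FC 0.26, adjusted p = 0.000204). With LA neither passed (log2FC 0.019, adjusted p = 0.839, and log2FC 0.032, adjusted p = 0.659). Map1lc3a, which rose in vehicle, had 70.3, 69.0, 74.3 and 69.7 CPM at day 6 and 76.3, 74.8, 95.9 and 59.9 CPM at day 2 with LA and did not pass (log2FC -0.13, SE 0.105, adjusted p = 0.329). Without day 2 LA replicate 4 it passed as lower at day 6 (log2FC -0.22, adjusted p = 0.0477). Foxo1 passed with LA when day 2 LA replicate 4 (0.0403) or day 6 LA replicate 2 (0.0407) was left out. With ANGPTL4, Map1lc3a did not pass (log2FC 0.26, SE 0.108, adjusted p = 0.0550) but did in 9 of 34 alternatives, with an adjusted p of 0.0132 without day 2 LA replicate 3. Map1lc3b passed with neither LA (log2FC -0.035, adjusted p = 0.657) nor ANGPTL4 (log2FC -0.019, adjusted p = 0.831). Ulk1, which phosphorylates the first autophagy complexes, had a log2FC between the days of 0.27 with LA, 0.24 with ANGPTL4 and 0.26 with vehicle (adjusted p = 5.13e-05, 0.000269 and 7.54e-05).

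**Figure D3:**
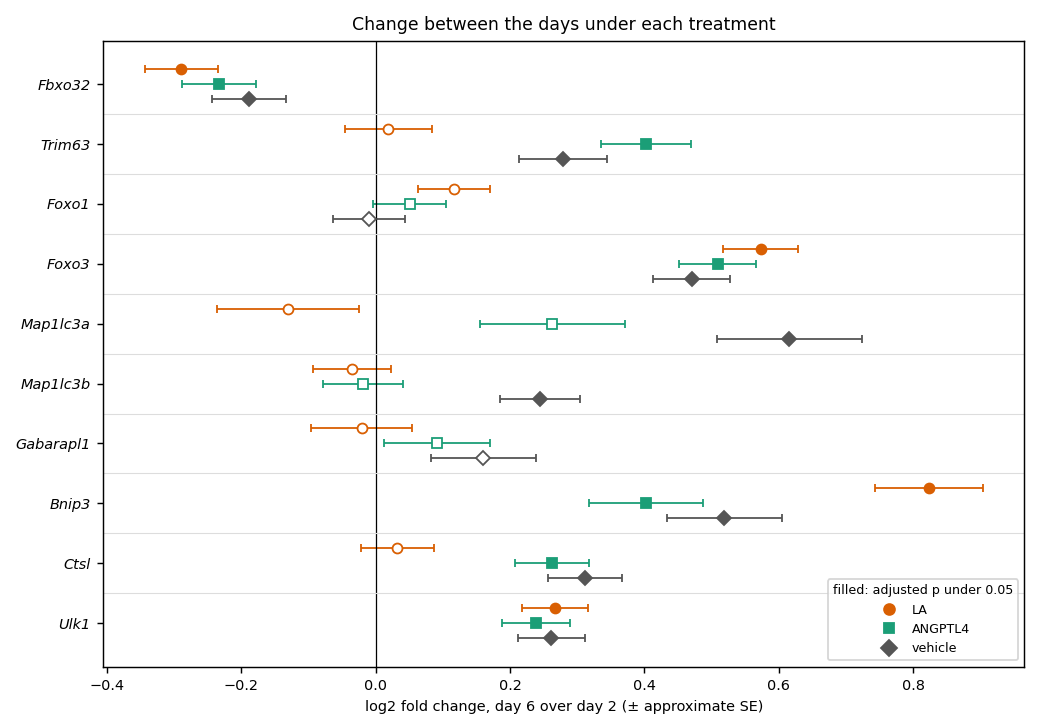
Log2FC of day 6 over day 2 (horizontal axis, ± approximate SE) for the 10 genes under LA (circles), ANGPTL4 (squares) and vehicle (diamonds), filled where the adjusted p was under 0.05. Fbxo32 lay left of 0 and Foxo3, Bnip3 and Ulk1 right of 0 under all 3, while the LA points of Trim63, Map1lc3a and Ctsl were open.

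Ordered by mean level over the 6 groups, few neighbours passed the test. Of the 50 steps between neighbouring groups, 7 did. For Fbxo32 the order from low to high was day 6 LA, day 6 ANGPTL4, day 6 vehicle, day 2 vehicle, day 2 ANGPTL4 and day 2 LA, and only the step between the days passed (adjusted p = 0.00527). Foxo3 and Ulk1 were likewise divided by day, with adjusted p = 4.63e-08 and 0.000653 at that step. For Trim63 the step that passed was between day 6 LA and day 6 vehicle. Bnip3 had 2 such steps, between day 2 LA and day 6 vehicle (0.00188) and between day 6 ANGPTL4 and day 6 LA (0.000268). Map1lc3b had 1, between day 2 vehicle and day 6 LA (0.0100). Foxo1, Map1lc3a, Gabarapl1 and Ctsl had 0 steps that passed.

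The other genes of these pathways were read from 7 lists with 137 genes tested, none of them among the 10. In vehicle, 56 were higher and 11 lower at day 6 (40.9% and 8.03%), against 25.2% and 20.5% of all genes. Autophagy initiation genes rose in 7 of 17 and fell in 0 (median log2FC 0.11, against 0.019 over all genes), led by Wipi1, which binds the lipid of the forming autophagosome (log2FC 0.58, SE 0.0528, adjusted p = 1.24e-10). Of autophagy receptors 7 of 13 rose and 1 fell (median 0.16). The mitophagy kinase Pink1 averaged 96.4 ± 4.95 CPM at day 6 and 54.2 ± 3.49 CPM at day 2 (log2FC 0.83, SE 0.0738, adjusted p = 9.85e-11). Of ATG8 and conjugation genes 4 of 12 rose (median 0.064), with the ATG8 protease Atg4a at 0.98 (SE 0.0875, adjusted p = 7.68e-11).

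Of lysosomal genes 13 of 31 rose and 2 fell in vehicle (median 0.096). This list also holds transcription factors of the TFEB family and the cathepsin inhibitors Cst3 and Cstb. Tfeb, a transcription factor of lysosomal genes, rose (log2FC 0.76, SE 0.102, adjusted p = 3.54e-07), as did cathepsin C, Ctsc, which averaged 9.57 ± 0.557 CPM at day 6 and 1.00 ± 0.368 CPM at day 2 (log2FC 3.22, SE 0.192, adjusted p = 6.19e-15). Of the other atrophy ligases and deubiquitinases 9 of 21 rose and 3 fell (median 0.13), among them the muscle F-box protein Fbxo40 (log2FC 1.04, SE 0.148, adjusted p = 1.42e-06). Of FOXO signalling genes 9 of 25 rose and 3 fell (median 0.055), with Deptor, an inhibitor of mTOR, at 0.61 (adjusted p = 2.29e-11). Of FOXO or glucocorticoid responsive genes 7 of 18 rose and 2 fell (median 0.14), and those that fell were the metallothioneins Mt1 and Mt2.

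With LA at day 6, 11 of the 137 were higher and 23 lower (8.03% and 16.8%), against 7.83% and 9.38% of all genes. Autophagy initiation genes fell in 4 of 17 and rose in 0 (median -0.0039, against -0.0096 over all genes). They included Atg9a, which supplies membrane (log2FC -0.31, SE 0.0539, adjusted p = 6.04e-05), and Wipi1, which averaged 138 ± 7.75 CPM with LA and 163 ± 10.7 CPM with vehicle (log2FC -0.24, SE 0.0525, adjusted p = 0.00117). Of receptors 1 rose and 3 fell (3 and 2 with library totals, median -0.092), with mitochondrial Bcl2l13 lower (log2FC -0.29, SE 0.0537, adjusted p = 0.000150). Of ATG8 and conjugation genes 0 rose and 2 fell (1 and 1 with library totals, median -0.081), with the protease Atg4d at -0.45 (adjusted p = 0.00351). Of the other ligases and deubiquitinases 1 rose and 5 fell (median -0.047), the muscle RING protein Trim54 among them (log2FC -0.26, SE 0.0642, adjusted p = 0.00330).

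Lysosomal genes rose in 4 of 31 and fell in 2 with LA at day 6 (median 0.056), cathepsin O, Ctso, being higher (log2FC 0.38, SE 0.0804, adjusted p = 0.000834) and Tfeb lower (log2FC -0.34, SE 0.0998, adjusted p = 0.0151). The Tfeb call was lost with day 6 vehicle replicate 1 (0.0938) or day 6 LA replicate 2 (0.0777) or 4 (0.0545) left out. Of FOXO signalling genes 2 rose and 5 fell (median -0.041). Foxo6 averaged 19.7 ± 1.27 CPM with LA and 29.6 ± 1.76 CPM with vehicle (log2FC -0.59, SE 0.0742, adjusted p = 5.09e-07), and the glucocorticoid receptor gene Nr3c1 rose (log2FC 0.30, SE 0.0521, adjusted p = 8.51e-05). Of responsive genes 3 rose and 2 fell (median 0.071). Catalase, Cat, rose (log2FC 0.34, SE 0.0571, adjusted p = 5.10e-05) and the repressor Bcl6 fell (log2FC -0.30, SE 0.0599, adjusted p = 0.000384). Muscle and fibroblast markers differed between the same libraries, as given above, and their part was not tested.

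With LA at day 2, 17 of the 137 were higher and 7 lower (12.4% and 5.11%), against 8.27% and 6.82% of all genes. Lysosomal genes rose in 6 of 31 and fell in 0 (median 0.041, against 0.0054 over all genes). Without the 2 libraries that stood apart, 3 rose and 0 fell. Among the 6 were both cathepsin inhibitors of the list. They were cystatin C, Cst3 (log2FC 0.35, SE 0.0801, adjusted p = 0.00581), and cystatin B, Cstb (log2FC 0.38, SE 0.0918, adjusted p = 0.00760). The Cstb call was lost without day 2 LA replicate 3 (0.0613) and without the 2 libraries apart (0.0607). Of receptors 2 of 13 rose (median 0.031), with the Bnip3 relative Bnip3l at 89.2 ± 0.874 CPM with LA and 72.9 ± 9.52 CPM with vehicle (log2FC 0.30, SE 0.0669, adjusted p = 0.00437). The other was Pink1 (log2FC 0.22, SE 0.0735, adjusted p = 0.0405), whose call was lost in 14 of 34 alternatives. Its adjusted p was 0.225 without day 2 LA replicate 3 and 0.210 without the 2 libraries apart. The ATG8 gene Gabarapl2 was the 1 of 12 that rose in its list (log2FC 0.51, SE 0.146, adjusted p = 0.0228). Its adjusted p was 0.109 without day 2 LA replicate 3, 0.0949 without the 2 libraries apart, and 0.0818 or 0.0926 without day 2 vehicle replicate 2 or 4. Initiation genes rose in 0 and fell in 2 of 17 (1 and 1 with library totals, median 0.019), among them Rb1cc1, the scaffold of the Ulk1 complex (log2FC -0.27, SE 0.0621, adjusted p = 0.00455).

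Of FOXO signalling genes 2 of 25 rose and 2 fell with LA at day 2 (median -0.098). Foxo4 averaged 52.7 ± 4.02 CPM with LA and 42.9 ± 4.33 CPM with vehicle (log2FC 0.31, SE 0.0611, adjusted p = 0.00214), and the receptor gene Igf1r fell (log2FC -0.31, SE 0.0658, adjusted p = 0.00338). Of responsive genes 4 of 18 rose and 1 fell (median 0.069), led by Ddit4, an inhibitor of mTOR signalling (log2FC 0.54, SE 0.0938, adjusted p = 0.000780). Of ligases and deubiquitinases 2 of 21 rose and 2 fell (median 0.018), Cblb, a ligase for signalling receptors, being lower (log2FC -0.21, SE 0.0649, adjusted p = 0.0241). The adjusted p of Cblb was 0.130 without day 2 LA replicate 3, 0.118 without the 2 libraries apart (log2FC -0.15) and 0.0944 without day 2 vehicle replicate 4. Over all comparisons, 33 of the 71 calls of list genes picked by rule, some genes in several comparisons, were lost in at least 1 alternative.

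With ANGPTL4 at day 6, 0 of the 137 list genes were called by edgeR, 1 by DESeq2 and 0 by limma-voom. Of all genes edgeR called 0.0231% there, and it gave 23 list genes an unadjusted p under 0.05. For this and the other counts at an unadjusted p, no share of all genes is given, so none is read as a result. At day 2, 8 of the 137 list genes were higher and 8 lower (5.84% and 5.84%), against 3.86% and 5.96% of all genes. Lysosomal genes rose in 3 and fell in 0 of 31 (2 and 2 with DESeq2 size factors, median 0.078), with cathepsin B, Ctsb, at 667 ± 39.2 CPM with ANGPTL4 and 571 ± 29.1 CPM with vehicle (log2FC 0.22, SE 0.0529, adjusted p = 0.00965). Another of the 3 was the cathepsin inhibitor Cst3 (log2FC 0.28, SE 0.0803, adjusted p = 0.0289), whose call was lost with any 1 of 4 libraries left out. Receptors rose in 2 of 13 (median 0.082), including Sqstm1, the p62 receptor (log2FC 0.17, SE 0.0478, adjusted p = 0.0245). The Sqstm1 call was lost with day 2 vehicle replicate 3 (0.129) or 4 (0.0651) or day 2 ANGPTL4 replicate 1 (0.144) left out. Pink1, the other receptor that rose (log2FC 0.24, adjusted p = 0.0391), lost its call in 17 of 34 alternatives. FOXO signalling genes rose in 1 and fell in 4 of 25 (median -0.063), with Igf1r lower (log2FC -0.26, SE 0.0658, adjusted p = 0.0126) and Foxo4 higher (log2FC 0.24, SE 0.0614, adjusted p = 0.0139), but with library totals in place of TMM 3 rose and 1 fell. With day 2 vehicle replicate 4 left out, Igf1r (0.0532) and Foxo4 (0.0669) missed the threshold, as did Foxo4 with day 2 ANGPTL4 replicate 2 left out (0.0536). The other ligases rose in 1 and fell in 3 of 21 (2 and 1 with library totals). Responsive genes rose in 1 of 18, initiation genes fell in 1 of 17 and conjugation genes were called in 0 of 12.

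**Figure D4:**
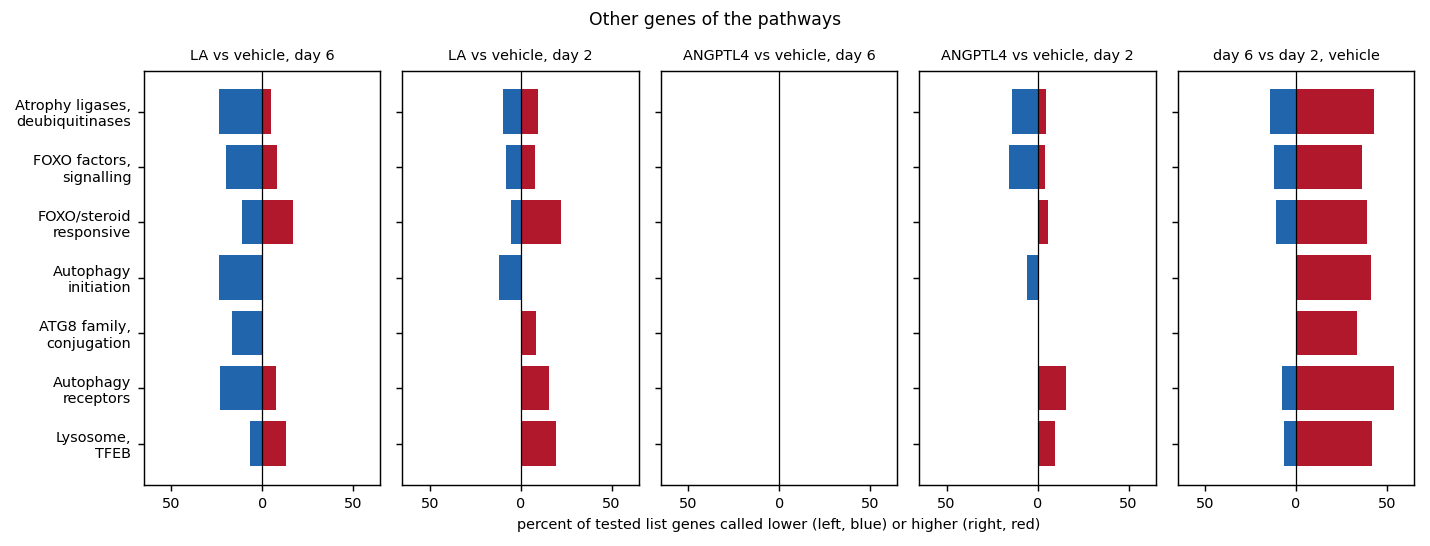
Percent of the tested genes of each pathway list called higher (right, red) or lower (left, blue) in 5 comparisons, with the 10 genes left out. In vehicle at day 6 against day 2 the bars pointed mostly right, the 4 called initiation genes with LA at day 6 all pointed left, and edgeR called no list gene with ANGPTL4 at day 6.

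**Figure D5:**
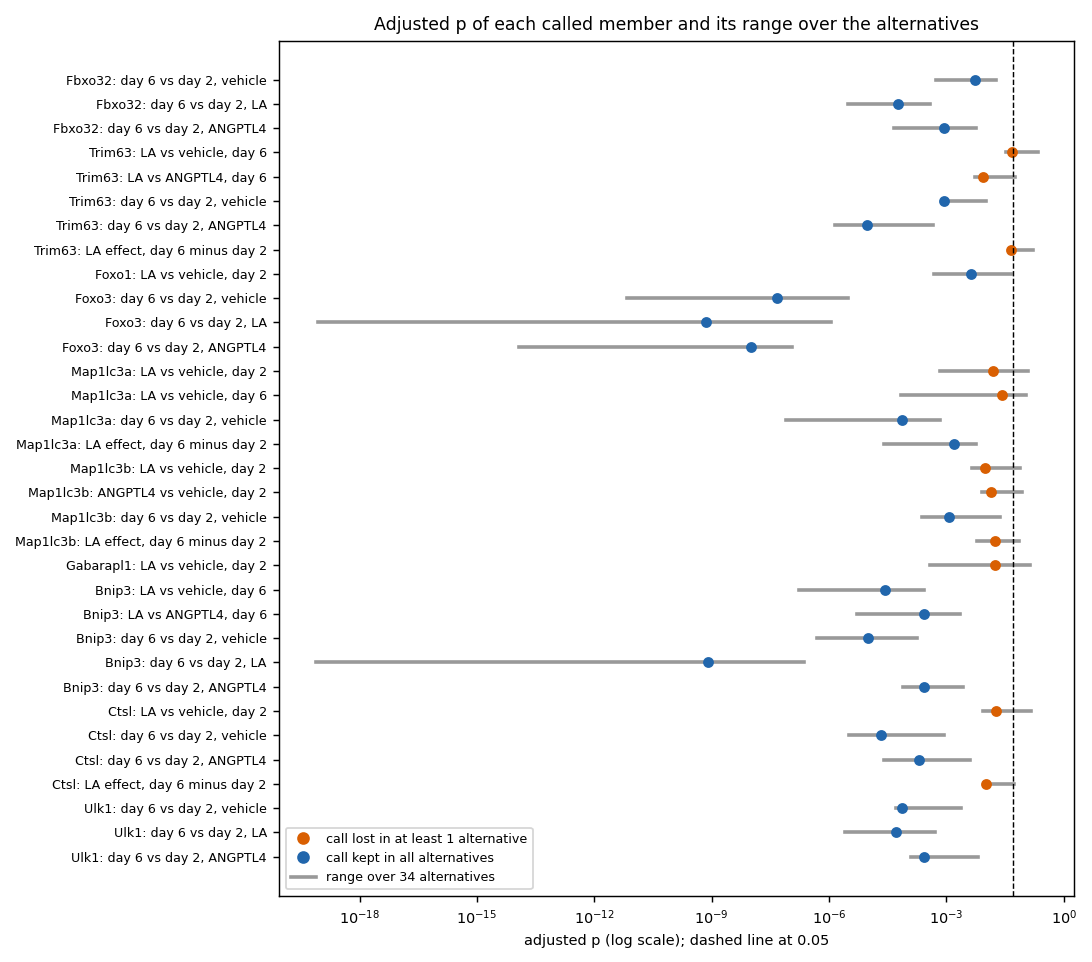
Adjusted p (log axis) of the 33 calls among the 10 genes, with the range over the 34 alternatives as a grey line and the threshold of 0.05 dashed. The 22 calls kept in every alternative (blue) include the day 6 against day 2 calls and Bnip3 with LA, and the 11 lost in at least 1 (orange) include Trim63, Map1lc3b, Gabarapl1 and Ctsl with a treatment.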

How the data were processed

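RNA with an integrity number over 7 went into QuantSeq 3′ libraries, per the labels' protocols. The submitters' processing notes name build mm39 and the tools STAR 2.7.1a, HTSeq 0.9.1, Trimmomatic, DESeq and DESeq2, without settings. The authors deposited raw counts per gene symbol for 14693 genes, filtered by a rule not given in the sources used here (lowest total 51 counts). Strand and multi-mapping settings were not given either. On an annotation of another build, Map1lc3b overlaps Zcchc14 and Gabarapl1 overlaps 1700101I11Rik on the opposite strand, so their reads may be shared. On the same strand, Foxo1 overlaps Gm38034, Map1lc3b Gm20388, Gabarapl1 Gm44243 and Ctsl Gm49230, genes not in the count table. How reads in these overlaps were counted was not given.

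Counts were filtered with filterByExpr (12994 genes kept), scaled by TMM and fitted as 6 group means with edgeR 4.0.16's robust quasi-likelihood method in R 4.3.3 (18 residual degrees of freedom, common biological variation 6.51%). SE are approximate, from the log2FC and F. Alternatives included limma-voom (limma 3.58.1) and DESeq2 1.42.0. The 10 genes, the lists and 1 alternative that drops 2 libraries were chosen with earlier results of these data known. All 10 were tested in every comparison, and those not mentioned in a comparison had no call there. By rule, up to 3 called genes per list of highest absolute log2FC and at least 5 CPM were picked, of which some are printed. Same-numbered libraries did not deviate together (correlations -0.309 to 0.303, 0 of 15 group pairs with all over 0.1), so numbers were not used as pairs. Within groups, pairs of libraries differed by more than sampling noise (chi-square per gene 1.55 to 19.6).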

Additional observations from a re-analysis of the deposited data

Results flagged for a closer look

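In 60 checks of the 10 genes in 6 groups, 3 libraries lay far from the other 3 of their group. Chance marks about 1 in 20 groups, which over 60 checks comes to about 3, the number found. Foxo3 was low in day 2 LA replicate 3 (64.1 CPM, the others 75.58 to 75.82 CPM), the library that also stood apart on the second principal component. Ctsl was high in day 2 ANGPTL4 replicate 1 (599 CPM, the others 530.05 to 540.63 CPM). Fbxo32 was high in day 6 vehicle replicate 3 (111 CPM, the others 109.06 to 109.20 CPM), where the other 3 were nearly equal and the gap is small beside the spread in other groups.

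The effect of LA differed between day 6 and day 2 in a test of the difference for 4 genes. The differences in log2FC were -0.75 for Map1lc3a (adjusted p = 0.00160 with edgeR), -0.28 for Map1lc3b (0.0173), -0.28 for Ctsl (0.0102) and -0.26 for Trim63 (0.0440). Map1lc3a had opposite signs at the 2 days, and its difference kept the call in all 34 alternatives.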

How the results depend on the processing

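Of 110 tests of the 10 genes, 33 gave a call, of which 22 were kept in all 34 alternatives and 11 were lost in at least 1, with 0 changes of sign among called values. Of 77 without a call, 10 gained one somewhere. With only the compared groups fitted, calls of the 10 genes were 1 for LA at day 2 (5 as reported), 0 for ANGPTL4 at day 2 (1 as reported) and 4 for LA against ANGPTL4 at day 6 (2 as reported), and calls of all genes were 422 for LA at day 2 (1961 as reported), 685 for ANGPTL4 at day 2 (1276 as reported), 83 for ANGPTL4 at day 6 (3 as reported) and 6 for LA against ANGPTL4 at day 2 (12 as reported). Without the 2 libraries apart, calls of the 10 genes were 1 for LA at day 2 (5 as reported), 2 for ANGPTL4 at day 2 (1 as reported) and 2 for the change of the LA effect (4 as reported), and calls of all genes were 590 for LA at day 2 (1961 as reported), 10 for ANGPTL4 at day 6 (3 as reported), 236 for LA against ANGPTL4 at day 2 (12 as reported) and 60 for the change of the ANGPTL4 effect (36 as reported). With libraries thinned to the smallest total, calls of all genes were 1203 for LA at day 2 (1961 as reported), 769 for ANGPTL4 at day 2 (1276 as reported) and 0 for ANGPTL4 at day 6 (3 as reported). With library totals alone, calls of the 10 genes were 1 for LA at day 6 (3 as reported), and calls of all genes were 1 for ANGPTL4 at day 6 (3 as reported) and 161 for the change of the ANGPTL4 effect (36 as reported). With DESeq2 size factors, calls of all genes were 1 for ANGPTL4 at day 6 (3 as reported) and 56 for the change of the ANGPTL4 effect (36 as reported). With DESeq2, calls of all genes were 75 for ANGPTL4 at day 6 (3 as reported), 38 for LA against ANGPTL4 at day 2 (12 as reported) and 388 for the change of the ANGPTL4 effect (36 as reported). With the replicate number as a replicate block, calls of all genes were 0 for ANGPTL4 at day 6 (3 as reported) and 0 for the change of the ANGPTL4 effect (36 as reported). With limma-voom, calls of all genes were 30 for LA against ANGPTL4 at day 2 (12 as reported) and 1 for the change of the ANGPTL4 effect (36 as reported). With at least 5 CPM in 4 libraries, calls of all genes were 64 for the change of the ANGPTL4 effect (36 as reported). Leaving out each library in turn, calls of the 10 genes ranged over 1 to 6 for LA at day 2, 1 to 3 for LA at day 6, 0 to 2 for ANGPTL4 at day 2, 0 to 1 for LA against ANGPTL4 at day 2, 1 to 3 for LA against ANGPTL4 at day 6, 4 to 6 for the days with LA, 6 to 7 for the days with ANGPTL4 and 1 to 5 for the change of the LA effect, and those of all genes over 632 to 2456 for LA at day 2, 1609 to 2366 for LA at day 6, 712 to 1528 for ANGPTL4 at day 2, 0 to 14 for ANGPTL4 at day 6, 6 to 363 for LA against ANGPTL4 at day 2, 1272 to 1961 for LA against ANGPTL4 at day 6, 5150 to 6008 for the days in vehicle, 5050 to 5868 for the days with LA, 4919 to 5644 for the days with ANGPTL4, 1806 to 2820 for the change of the LA effect and 0 to 312 for the change of the ANGPTL4 effect. The block changed no call of the 10 genes by count, and 27 of 120 library checks correlated best with their own number. The share of higher calls over all genes was 59.1% for LA at day 6 with library totals alone (45.5% as reported), 68.2% for LA at day 2 with library totals alone (54.8% as reported), 54.2% for ANGPTL4 at day 2 with library totals alone (39.3% as reported), 27.1% for ANGPTL4 at day 2 with DESeq2 size factors (39.3% as reported), 62.9% for LA against ANGPTL4 at day 6 with library totals alone (47.4% as reported) and 38.3% for the days with ANGPTL4 with library totals alone (53.1% as reported). The lowest count of the 10 genes, in Trim63, was 219. The cause of lost calls was not tested.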

Other observations

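Genes with the most similar profile were found from the root mean square difference of group mean log2 CPM over the 6 groups, each profile centred on its mean, among 9107 other genes of at least 10 CPM. Such likeness is a description over 6 groups that share libraries. For Bnip3, whose group means spanned 1.02 on the log2 scale, the nearest were Pdk1 and Angpt4 (0.0469 and 0.0504). Pdk1 encodes a pyruvate dehydrogenase kinase. For Map1lc3a (span 0.617) they were Spsb2 and Cox19 (0.0259 and 0.0414), and for Foxo3 (span 0.571) Pcgf5 and Kat2b (0.0228 and 0.0266). For Trim63 they were Tmlhe and Hif1an (0.0212 and 0.0311), for Ctsl Paip2b and Mylip (0.0205 and 0.0250) and for Ulk1 Rnf103 and Crat (0.0143 and 0.0210). For Fbxo32, Foxo1, Map1lc3b and Gabarapl1 the nearest profiles were, in that order, Mccc2 and Bpnt1 (0.0141 and 0.0148), Daam1 and Pura (0.0146 and 0.0161), Nipsnap3b and Egln2 (0.0113 and 0.0147) and Rpia and Mfsd1 (0.0215 and 0.0276).

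Pdk4, a kinase that restrains glucose oxidation and a FOXO and PPAR responsive gene, had the highest log2FC of its list with LA at day 6. It averaged 112 ± 10.9 CPM with LA and 37.4 ± 3.07 CPM with vehicle (log2FC 1.58, SE 0.108, adjusted p = 3.50e-10, edgeR), beside Fbxo32, which did not pass there.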
